A study of Mus musculus with 1931 samples.

Results

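The cathepsins, cystatins and serpins are the proteases of the lysosome and 2 families of protease inhibitors, and they were followed through the cells of stem-cell-based embryo models and of the matching 2D cultures. Members were taken by their symbols (*Cts*, *Cst* without *Cstf*, and *Serpin* followed by a letter and a number). No value entered this match, but these families were chosen with earlier results of these data known. This gave 96 of the 20999 genes in the deposited table, 22 cathepsins, 13 cystatins and 61 serpins. The cystatin pattern also takes in *Cstad*, which is no cystatin, and *Cstl1*, which is cystatin-like.

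Cathepsins are proteases made as inactive precursors and activated in acidic compartments. Cathepsins B, C, F, H, K, L, O, S, W and Z are cysteine proteases, cathepsin D is an aspartic protease, and cathepsin A is a serine carboxypeptidase that also protects other lysosomal enzymes. Cystatins block cysteine cathepsins, and most serpins trap serine proteases, although some have lost this activity and serve as hormone carriers or, like *Serpinh1* (HSP47), as a chaperone of collagen in the endoplasmic reticulum. The visceral endoderm (VE) of the early mouse embryo takes up and digests maternal proteins in large apical vacuoles, whereas trophoblast of the later placenta uses a rodent-specific group of cathepsins.

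Single cells came from 1 pool of Rosette-to-Lumen stage embryoids (RtL-embryoids, 3D) and from 3 2D cultures, each of which is 1 sample. RtL-embryoids were built from 3 mouse ESC lines: Kermit ESCs with a GFP transgene of *Oct3/4*, 5-Factor ESCs with doxycycline-inducible (DOX) *Cdx2*, *Tfap2c*, *Eomes*, *Gata3* and *Ets2*, and mCherry-labelled iGATA6 ESCs, a lentivirally transduced line with DOX-inducible *Gata6*. The same schedule, 3 days with 2 µg/ml DOX and a last 24 h without it, was used for the embryoids and for the 2D conversions of 5-Factor ESCs to iTSC and of iGATA6 ESCs to iXEN cells, which grew in trophoblast and in XEN cell medium. The 3rd 2D culture, 2i/LIF ESC, was of Kermit ESCs in ESC medium with 2i/LIF, for which no DOX is described. Cells of all cultures were sorted by GFP, mCherry or the surface protein CD40 into the wells of plates, with 1 plate for each 2D culture. The 3D wells were compared by their columns, with columns 1 to 8 called Epi columns, 9 to 16 VE columns and 17 to 24 ExE columns (extraembryonic ectoderm), names that rest on marker genes, since the labels do not give the gate of a well.

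Of 1931 wells, 1406 held a cell with 2500 or more detected genes and were used. The Epi columns gave 22.3% of these cells, the VE columns 22.4%, the ExE columns 25.1%, 2i/LIF ESC 10.1%, iTSC 10% and iXEN cells 10%, and no pair of cells had identical values. Read numbers are unknown for these values, and the median number of genes above 0 took the place of depth, with 4823, 5348 and 5396 genes in the 3 column blocks and 9093.5, 8537 and 8699 in the 2D cultures. A gene at a low level was therefore more often found in a 2D cell, and shares of cells are compared within 3D or within 2D. Levels are given as TP10k, the TPM of a gene per 10000 TPM of its cell, which is corrected for transcript length. With 1 culture per group no test of a difference was possible and no p-value is given. A member is counted as higher or lower past 2-fold in the mean TP10k, on the log2(mean + 0.01) scale, with the same sign on each of plates 3, 4 and 5 for 3D cells. It had to be above 0 in at least 10% of the cells of 1 of the groups. The plates are technical splits of the pool. Intervals of shares are exact 95% (Clopper-Pearson) intervals and cover counting error only.

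The column blocks were described with 7 Epi, 7 VE and 8 ExE markers. As the column names rest on marker genes, these values are no independent check of the names. Each marker had its highest mean of the 3 blocks in the columns of its own name, with 7 of 7, 7 of 7 and 8 of 8. After each marker was scaled to the same spread, the own list led in all but 3 cells of the Epi columns, all but 4 of the VE columns and all but 37 of the ExE columns. In the ExE columns 33 cells led in VE and 4 in Epi markers, and calls on the ExE columns are given with and without these 37 cells. Where a log2 ratio between 2 column blocks is given without the 37 cells, the 3 cells of the Epi or the 4 of the VE columns led by other lists are left out too. The scaling was chosen after seeing the data: by the unscaled mean of ln(TP10k + 1), 61 cells of the VE columns and 74 of the ExE columns led in Epi markers, and 60 of the ExE columns in VE markers. VE columns still held Epi markers, with a mean sum of 77.2 TP10k against 273.8 TP10k in the Epi columns. In the 2D cultures the own list led in every 2i/LIF ESC and iXEN cell and in all but 11 iTSC. Macrophage markers, which matter here because macrophages are rich in cathepsins, summed to 0.201 to 0.592 TP10k in the 6 groups, with 4 or 5 of the 7 markers in under 5% of the cells of each group, and fibroblast markers to 0.0108 to 0.0478 TP10k.

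Most of the members were hardly found. Of the 96, 2 were above 0 in no cell, 61 were found in under 10% of the cells of every group, with no mean above 0.0247 TP10k, and 33 were found in 10% or more of at least 1 group. The latter are 10 cathepsins, 3 cystatins and 20 serpins, and 13 of them reached a mean of 1 TP10k in some group. These 13 are *Ctsl*, *Ctsz*, *Ctsd*, *Ctsa*, *Ctsb*, *Ctsh*, *Ctsc*, *Cst3*, *Cstb*, *Serpinh1*, *Serpinb6a*, *Serpine2* and *Serpinb6c*. Of the 33 members, 15 had their highest mean in iXEN cells and 3 in the VE columns, 6 in iTSC, 3 in the ExE columns, 4 in the Epi columns and 2 in 2i/LIF ESC. The same split was not counted over all genes. The filter of 10% is met more easily in 2D cells, where more genes were found.

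**Figure D1:**
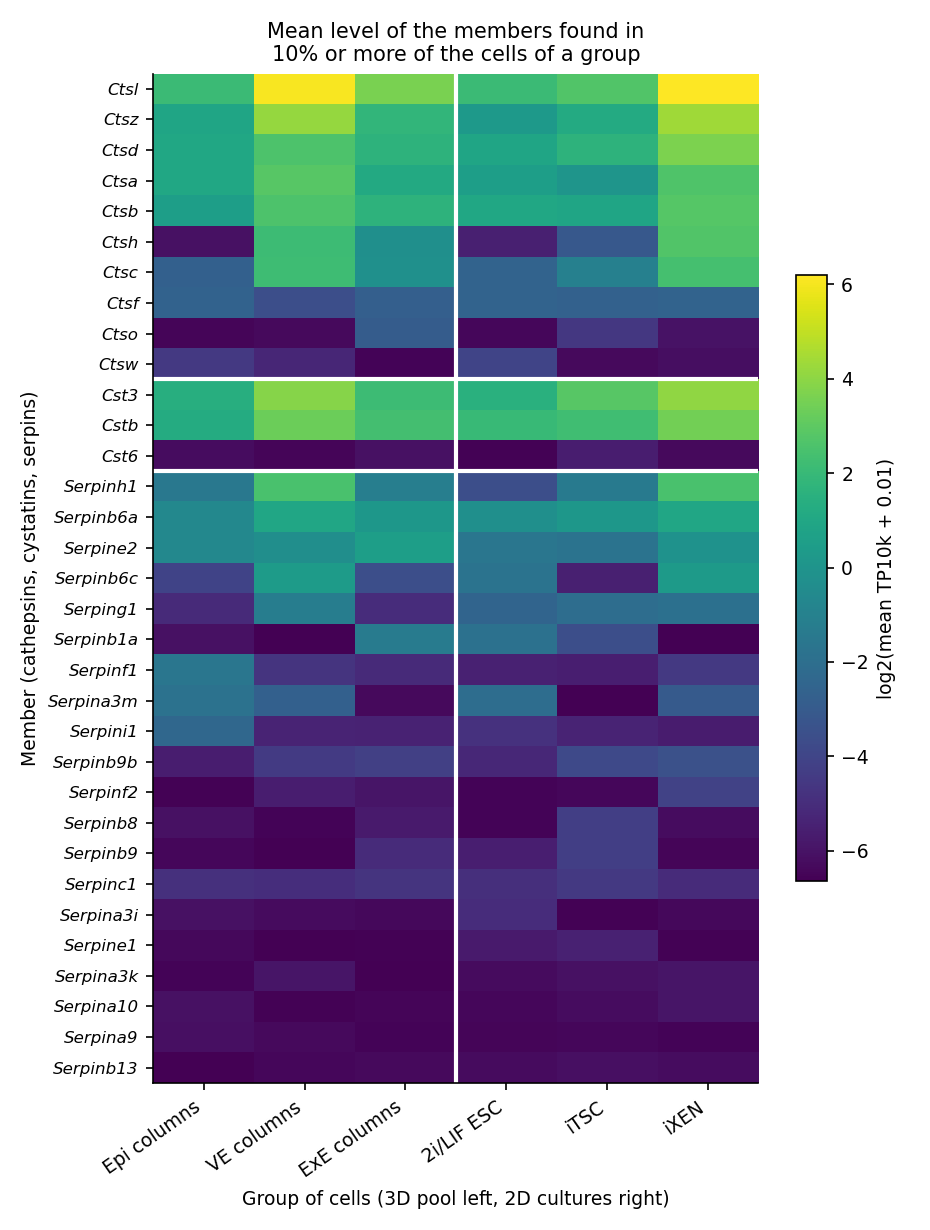
Mean level of the 33 members found in 10% or more of the cells of a group, as log2(mean TP10k + 0.01), by group of cells (x axis) and member (y axis, by family). The VE columns and iXEN cells share the brightest fields, led by *Ctsl* at 66.7 and 73.1 TP10k.

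Many members lie in gene clusters. In GRCm38, 75 of the 96 members lie in 9 loci with at least 2 members less than 1 Mb apart. The largest holds 24 *Serpina* genes at chr12:103614786-104414329, and *Serpinb* genes lie in a cluster of 15 at chr13:32842092-34002794 and one of 11 at chr1:106861173-107610484. *Cst3* lies among 8 cystatin genes at chr2:148750358-149410293, of which no other was found in 10% of the cells of any group. The 8 placental cathepsins (*Ctsj*, *Ctsq*, *Ctsr*, *Cts6*, *Cts8*, *Cts7*, *Ctsm* and *Cts3*) lie at chr13:61000179-61570127, on the chromosome that also carries *Ctsl*. They were hardly found, and their summed mean was between 0.00356 TP10k in the Epi columns and 0.0181 TP10k in the VE columns, and 0.00517 TP10k in the ExE columns and 0.0093 TP10k in iTSC, the trophoblast groups. Near-identical copies within these clusters can share reads, so values of single *Serpinb6*, *Serpinb9*, *Serpinb1* and *Serpina3* genes are uncertain.

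Cathepsins were the most abundant of the 3 families, and their transcripts were concentrated in the endoderm groups. Their summed mean was 12.1 TP10k in the Epi columns, 113.02 TP10k in the VE columns and 25.9 TP10k in the ExE columns, and 11.2, 15.5 and 131.5 TP10k in 2i/LIF ESC, iTSC and iXEN cells. Cathepsin transcripts thus made up 1.13% of the rescaled total in the VE columns and 0.121% in the Epi columns. This total leaves out the mitochondrial, ribosomal and pseudogenes that the authors removed. The plates gave 106.3 to 123.4 TP10k for the VE columns and 11.3 to 13 TP10k for the Epi columns, and did not overlap. Most single cells were apart as well: the 5th percentile of the sum was 57.3 TP10k in the VE columns and the 95th percentile 24.9 TP10k in the Epi columns. Without *Ctsl*, which held 59% of the sum in the VE columns, the sums were 46.4 TP10k in the VE columns and 7.7 TP10k in the Epi columns.

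In the VE columns 13 members were higher and 2 were lower than in the Epi columns, of 20 that passed the detection filter. The background for this comparison was 15.1% of 10662 genes higher and 15.1% lower. The median log2 ratio of the 20 members was 1.97, against -0.06 over all genes that passed. Because a member found in 1 group alone enters through the group where it is high, the 14 members found in 10% of the cells of both groups were counted apart. Of these, 10 were higher and 0 lower, next to 11.7% and 10.6% of 8932 genes. By family, 7 of 8 cathepsins, 2 of 2 cystatins and 4 of 10 serpins were higher.

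*Ctsl*, a broadly acting cysteine endopeptidase, was the most abundant member in every group but iTSC, where *Cst3* was higher. Its mean was 4.35 TP10k in the Epi columns, 66.7 TP10k in the VE columns, 12 TP10k in the ExE columns, 4.26 TP10k in 2i/LIF ESC, 6.43 TP10k in iTSC and 73.1 TP10k in iXEN cells. The VE columns had 61.3 to 76.3 TP10k on the 3 plates and the Epi columns 3.81 to 4.94 TP10k, a log2 ratio of 3.93. In the VE columns 98.4% of the cells lay above the 95th percentile of the Epi columns (11.1 TP10k), and in the ExE columns 29.2% did. *Ctsl* was above 0 in 92% (88.5 to 94.8%) of the cells of the Epi columns and in all cells of the VE columns and of the 2D cultures. *Ctsl* lies on the minus strand at chr13:64359337-64370890, and 26.8% of its exonic bases overlap an antisense gene, *Gm47123*, whose reads cannot be told apart without strand.

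*Ctsz*, a carboxypeptidase, followed the same order of the 6 groups as *Ctsl*. It had 1.89, 17.8 and 3.48 TP10k in the Epi, VE and ExE columns and 1.17, 2.31 and 20.5 TP10k in 2i/LIF ESC, iTSC and iXEN cells. The VE columns stood at 17.5 to 18 TP10k on the 3 plates and the Epi columns at 1.67 to 2 TP10k, a log2 ratio of 3.23. *Ctsz* lies on the minus strand at chr2:174427493-174439039.

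Among the cathepsins, *Ctsh* and *Ctsc* had the largest ratios of the VE over the Epi columns. *Ctsh*, an aminopeptidase, had a mean of 4.39 TP10k in the VE columns (4.25 to 4.49 on the plates) and 0.00508 TP10k in the Epi columns. It was found in 89.5% (85.6 to 92.7%) of the cells of the VE columns, in 27.8% (23.2 to 32.7%) of the ExE columns and in 0.955% (0.197 to 2.77%) of the Epi columns. *Ctsh* was thus near absent from the Epi columns, where its mean rests on 3 cells. In 2D it showed the same split, with 6.6 TP10k in iXEN cells, where every cell had it, 0.105 TP10k in iTSC and 0.0116 TP10k in 2i/LIF ESC. *Ctsc*, the dipeptidyl peptidase that activates granule serine proteases, had 4.54 TP10k in the VE columns and 0.145 TP10k in the Epi columns, a log2 ratio of 4.87. It was found in 95.9% (93 to 97.8%) and 17.5% (13.5 to 22.2%) of the cells.

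Cathepsins A, B and D, which are made by most cell types, differed less. *Ctsb*, an endo- and exopeptidase, had 6.05 TP10k in the VE and 1.43 TP10k in the Epi columns (log2 ratio 2.07). *Ctsa* had 7.34 TP10k and 1.99 TP10k (log2 ratio 1.88). *Ctsd*, the aspartic protease, had 6.16 TP10k and 2.01 TP10k (log2 ratio 1.61). For each of these 3 genes the lowest plate of the VE columns was above the highest plate of the Epi columns, but single cells overlapped, with 57.5%, 55.2% and 49.2% of the cells of the VE columns above the 95th percentile of the Epi columns. *Ctsf* was the 1 cathepsin past the detection filter that was not higher, with 0.0734 TP10k in the VE and 0.152 TP10k in the Epi columns. Exons of *Ctsd* share 34.4% of their bases with *Gm49369* on the same strand, and those of *Ctsa* and *Ctsb* overlap *Pltp* (10.5%) and *Fdft1* (12.8%) on the other strand.

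**Figure D2:**
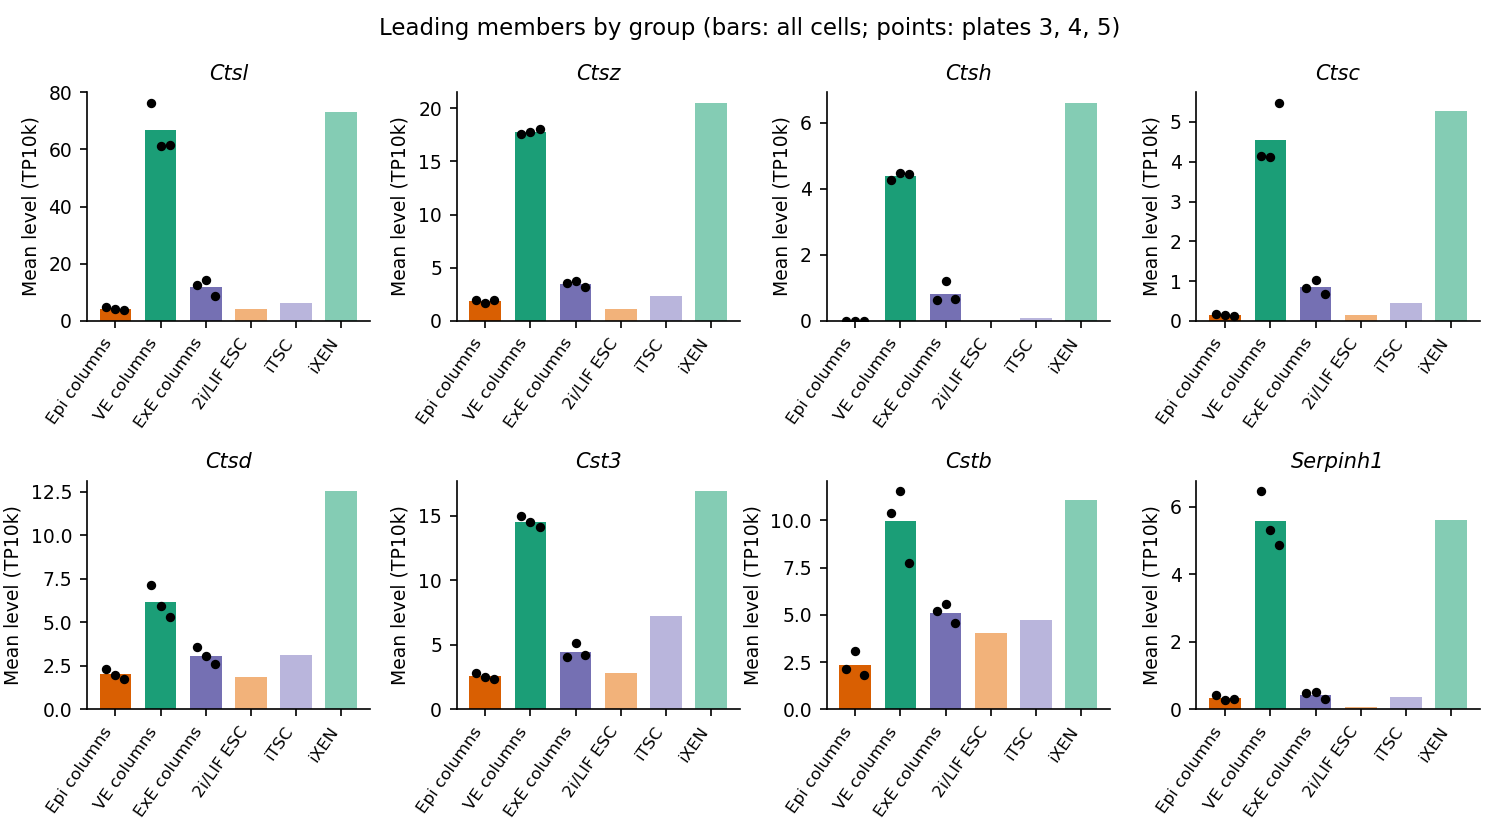
Mean level in TP10k (y axis, linear) of 8 leading members in the 6 groups (x axis), with bars for all cells of a group and points for plates 3, 4 and 5 of the 3D pool. The plates of the VE columns lie apart from those of the Epi columns for each of the 8 genes, for *Ctsz* at 17.5 to 18 against 1.67 to 2 TP10k.

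Both abundant cystatins had their highest levels in the VE columns and iXEN cells, as the abundant cathepsins did. *Cst3* (cystatin C), the secreted inhibitor of cysteine cathepsins, had 2.59, 14.5 and 4.48 TP10k in the Epi, VE and ExE columns and 2.8, 7.23 and 16.9 TP10k in 2i/LIF ESC, iTSC and iXEN cells. *Cstb* (cystatin B), an inhibitor within the cytosol, had 2.35, 9.95 and 5.12 TP10k and 4.03, 4.75 and 11.1 TP10k in the same order. Both were higher in the VE than in the Epi columns, with log2 ratios of 2.48 and 2.08. The summed cathepsins exceeded the summed cystatins 2.43-fold in the Epi, 4.61-fold in the VE and 2.69-fold in the ExE columns, and 1.63-, 1.29- and 4.7-fold in 2i/LIF ESC, iTSC and iXEN cells. The 3rd cystatin found in 10% of the cells of a group was *Cst6*, which passed 2-fold in none of the 8 comparisons.

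Among the serpins *Serpinh1* stood out in the VE columns. It had 0.337, 5.58 and 0.439 TP10k in the Epi, VE and ExE columns and 0.0749, 0.368 and 5.62 TP10k in 2i/LIF ESC, iTSC and iXEN cells, and made up 54.2% of all serpin transcripts in the VE columns. The plates of the VE columns gave 4.86 to 6.45 TP10k and those of the Epi columns 0.268 to 0.422 TP10k, a log2 ratio of 4.01. In the VE columns 98.1% of the cells exceeded the 95th percentile of the Epi columns (1.42 TP10k). *Serpinh1* lies on the minus strand of chromosome 7. Over the 6 group means its order was the same as those of *Ctsl* and *Ctsz* (Spearman's rho 1, n = 6 groups), and the order of *Serpinb6a* was that of *Cst3*. Without the 37 cells of the ExE columns led by other markers, the order of *Serpinh1* no longer matched (rho 0.829 to both). *Cstb*, *Ctsc*, *Ctsd* and *Ctsh* had rho 0.943 to *Ctsl*, and without the 37 cells 0.886 for *Cstb* and *Ctsc*.

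Genes that work beside HSP47 in collagen folding were counted from a list of 15. This list and the other gene lists below were chosen with earlier results of these data known. In the VE columns 13 were higher and 2 lower than in the Epi columns, next to 15.1% of all genes in each direction. Their median log2 ratio was 2.34. *Col4a1* and *Col4a2*, chains of basement membrane collagen IV, had 16.1 and 3.45 TP10k against 0.0573 and 0.0158 TP10k. *P4ha2*, a prolyl hydroxylase, had 4.09 TP10k against 0.182 TP10k. The 2 lower genes were *Col18a1* (0.016 against 1.2 TP10k) and *Fkbp10*. Collagen IV chains also mark parietal endoderm, and a list of 8 parietal endoderm markers summed to 89.3 TP10k in the VE columns, 6.63 TP10k in the ExE columns and 1.49 TP10k in the Epi columns, with 1 of the 8 in under 5% of the cells of the VE columns. Its part in the level of *Serpinh1* was not tested.

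Lysosomal genes outside the 3 families were counted in the same way. Of 26 listed genes, 15 were higher and 2 lower in the VE than in the Epi columns, next to 15.1% of all genes in each direction. Their median log2 ratio was 1.23. The list was led by *Lgmn* (legumain, which processes cathepsins) with 12.8 against 0.635 TP10k, *Lamp1* (a membrane protein of the lysosome) with 19.9 against 2.7 TP10k, *Hexa* (a subunit of hexosaminidase) with 6.2 against 1.05 TP10k and *Igf2r* (a receptor that sorts lysosomal enzymes) with 0.397 against 0.0608 TP10k. Among the lower genes was *Sort1*, a sorting receptor named after its values were seen, with 0.019 against 0.0737 TP10k.

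Other serpins of the VE columns were less abundant. *Serpinb6a*, an intracellular inhibitor, had 1.89 TP10k against 0.623 TP10k in the Epi columns (log2 ratio 1.59). *Serpinb6c* had 1.29 TP10k against 0.0509 TP10k and was found in 70.2% (64.8 to 75.2%) against 4.78% (2.7 to 7.76%) of the cells. *Serping1* (C1 inhibitor, which acts on complement and contact proteases) had 0.417 TP10k against 0.0188 TP10k and was found in 45.7% (40.1 to 51.4%) against 4.14% (2.22 to 6.98%). Of 21 listed targets and receptors of serpins, 13 passed the detection filter. Of these, 1 was lower and 8 were higher in the VE columns, next to 15.1% of all genes in each direction. The higher genes included the protease *Htra1* (3.75 against 0.033 TP10k), the tissue plasminogen activator *Plat* (0.527 against 0.00102 TP10k), the urokinase receptor *Plaur* (3.43 against 0.0993 TP10k) and the endocytic receptor *Lrp2* (1.74 against 0.0627 TP10k). *Lrp1*, a receptor that clears protease-serpin complexes, was the lower gene with 0.0407 against 0.174 TP10k. Of 22 inhibitors from other families 7 passed the filter and 5 were higher, next to 15.1% of all genes. They were led by *Spink1* (3.33 against 0.0132 TP10k), *Tfpi* (7.64 against 0.295 TP10k) and *Timp3* (0.557 against 0.0277 TP10k).

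The serpins of the Epi columns were a different set. *Serpinf1* (PEDF, a secreted serpin without inhibitory activity) and *Serpini1* (neuroserpin, an inhibitor of tissue plasminogen activator) were the 2 members lower in the VE than in the Epi columns. *Serpinf1* had 0.318 TP10k in the Epi columns (0.239 to 0.428 on the plates), 0.0282 TP10k in the VE and 0.0184 TP10k in the ExE columns, and it was found in 15% (11.2 to 19.4%), 3.17% (1.53 to 5.76%) and 0.85% (0.176 to 2.46%) of the cells. *Serpini1* had 0.184, 0.0143 and 0.0137 TP10k and was found in 26.1% (21.3 to 31.3%), 3.17% (1.53 to 5.76%) and 4.53% (2.61 to 7.26%). *Serpina3m*, of a family expanded in rodents, was shared by the Epi and VE columns with 0.272 and 0.144 TP10k and nearly missing from the ExE columns with 0.00232 TP10k.

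**Figure D3:**
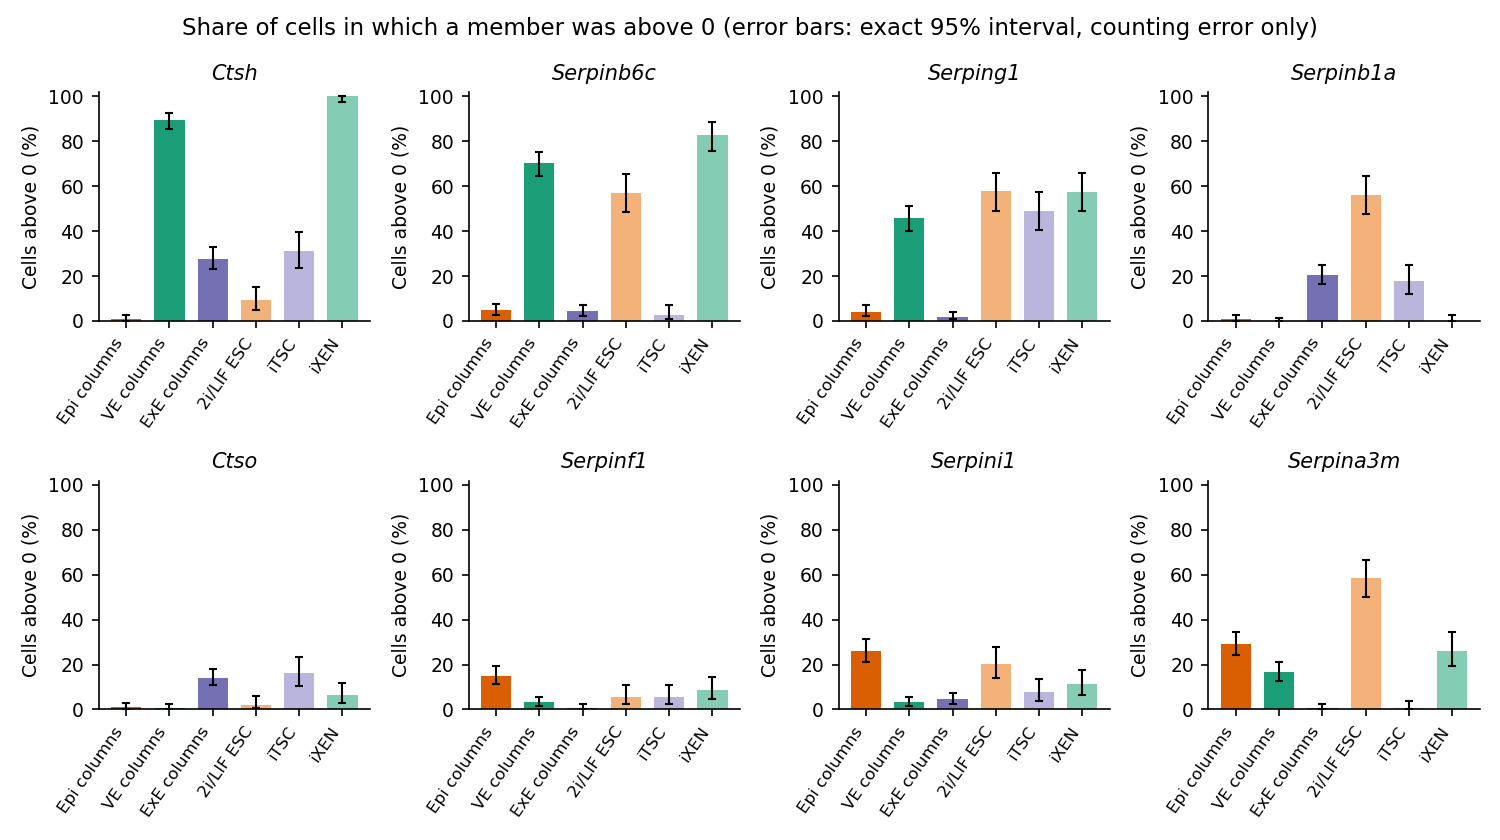
Share of cells in percent (y axis) in which a member was above 0, in the 6 groups (x axis), with exact 95% intervals for counting error. *Ctsh* separates the VE columns (89.5%) from the Epi columns (0.955%), and *Serpinb1a* is found in none of the cells of the VE columns or iXEN cells.

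The mean of the ExE columns lay between those of the other 2 blocks for 12 of the 13 abundant members, all but *Serpine2*. Without the 37 cells this held for 9 of the 13, as *Serpinh1*, *Ctsa* and *Serpinb6c* then lay below the Epi columns. How often all genes have this order was not counted, and the 13 were taken by a high mean in some group. Against the Epi columns 8 members were higher and 3 lower of 19 that passed the filter, with a background of 14.1% of genes higher and 8.08% lower. Of the 13 members found in 10% of the cells of both groups, 5 were higher and 0 lower, next to 9.35% and 5.5% of 9258 genes. The higher members were *Ctsl*, *Ctsb*, *Ctsh*, *Ctsc*, *Ctso*, *Cstb*, *Serpine2* and *Serpinb1a*, and the lower ones *Serpinf1*, *Serpini1* and *Serpina3m*. Without the 37 cells that led in other markers *Ctsl* was no longer past 2-fold, with a log2 ratio of 0.93 in place of 1.47, and the other 10 calls remained. Of 8 stress markers, *Nupr1* stood at 14.2 TP10k in the ExE columns against 2.8 TP10k in the Epi and 1.32 TP10k in the VE columns, and the other 7 summed to 1.64, 1.75 and 1.37 TP10k. The part of *Nupr1* in these values was not tested.

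How far the 37 cells carried the means of the ExE columns differed between members. With all cells the means were 12 TP10k for *Ctsl*, 0.831 TP10k for *Ctsh*, 0.847 TP10k for *Ctsc* and 0.439 TP10k for *Serpinh1*. In the cells led by ExE markers they were 8.29, 0.46, 0.39 and 0.204 TP10k. In the 37 other cells they were 43.9, 4, 4.75 and 2.45 TP10k, which is near the VE columns for *Ctsh* and *Ctsc*. *Serpine2* hardly moved, with 1.49 TP10k in the cells led by ExE markers and 1.31 TP10k in the 37. *Ctsh* was still found in 25.3% of the cells led by ExE markers, against 0.955% of the cells of the Epi columns.

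**Figure D4:**
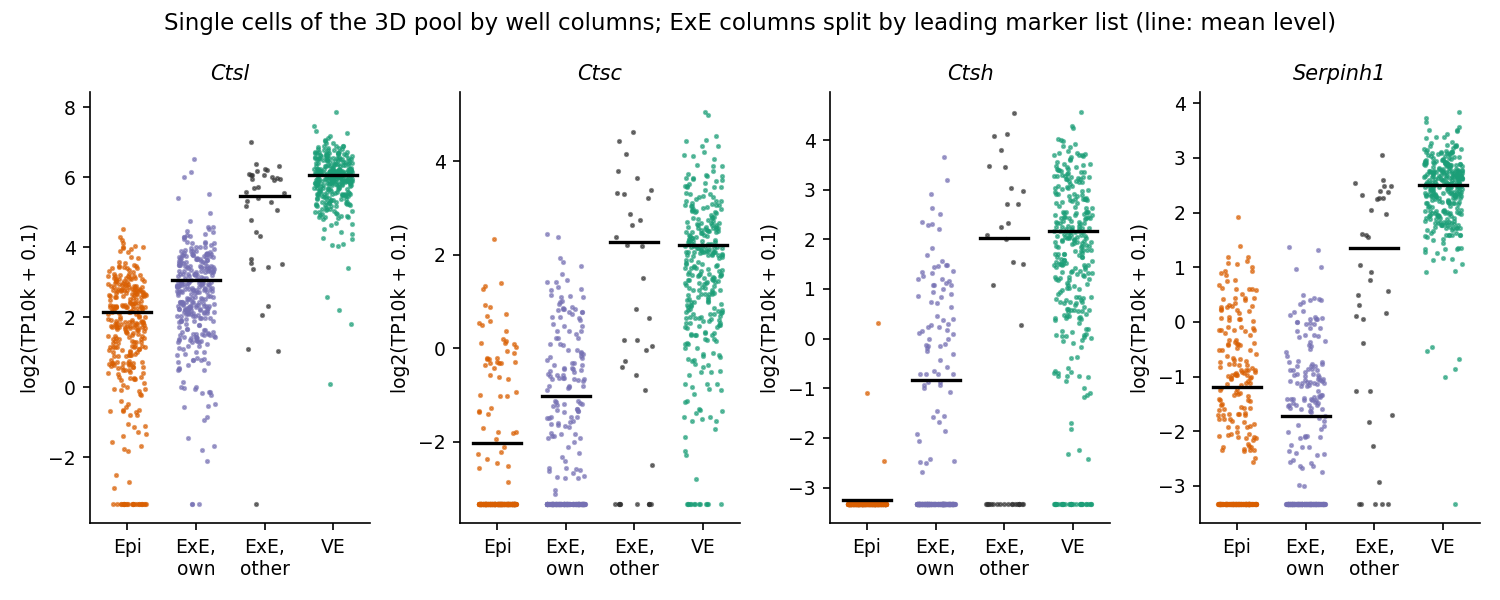
Level of *Ctsl*, *Ctsc*, *Ctsh* and *Serpinh1* in single cells as log2(TP10k + 0.1) (y axis) in the Epi columns, in the cells of the ExE columns led by their own and in the 37 led by other markers, and in the VE columns, with a line at the mean level. The 37 cells have a mean of 43.9 TP10k of *Ctsl*, between the 8.29 TP10k of the other cells of these columns and the 66.7 TP10k of the VE columns.

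*Serpine2*, *Serpinb1a* and *Ctso* had their highest 3D means in the ExE columns. *Serpine2* (protease nexin 1, an inhibitor of thrombin and plasminogen activators) had 1.47 TP10k, against 0.632 TP10k in the Epi and 0.791 TP10k in the VE columns, and made up 39.5% of all serpin transcripts in the ExE columns. Its median was 0.325 TP10k in the ExE, 0 in the Epi and 0.312 TP10k in the VE columns. The higher mean thus rests on part of the cells, with 13.3% of the ExE columns above the 95th percentile of the Epi columns (3.36 TP10k). *Serpinb1a*, an intracellular inhibitor of neutrophil-type proteases, had 0.398 TP10k and was found in 20.4% (16.3 to 25%) of the cells, against 0.005 TP10k and 0.955% (3 cells) in the Epi columns. It was listed at 0 in every cell of the VE columns, which allows a share of up to 0.952% if a floor of 3 cells is taken. *Ctso*, a cysteine cathepsin of little-known function, had 0.123 TP10k and was found in 14.2% (10.7 to 18.2%) of the cells, against 0.00122 TP10k in the Epi and 0.0024 TP10k in the VE columns. Without the 37 cells *Serpinb1a* had 0.29 TP10k and *Ctso* 0.0966 TP10k.

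Between the VE and ExE columns 10 members were higher in the VE and 2 lower, of 20 past the filter, with backgrounds of 7.9% and 14%. Of the 14 found in 10% of the cells of both blocks, 7 were higher and 0 lower, next to 6.18% and 8.96% of 9440 genes. The higher ones were *Ctsl*, *Ctsz*, *Ctsa*, *Ctsh*, *Ctsc*, *Cst3*, *Serpinh1*, *Serpinb6c*, *Serping1* and *Serpina3m*, the lower ones *Serpinb1a* and *Ctso*. The log2 ratio was 2.47 for *Ctsl*, 2.35 for *Ctsz*, 2.39 for *Ctsh* and 3.64 for *Serpinh1*, and without the 37 cells 3.02, 2.69, 3.25 and 4.72. *Ctsd*, *Cstb* and *Ctsb* lay just under 2-fold at 0.99, 0.96 and 0.94, and passed it without the 37 cells at 1.12, 1.08 and 1.03.

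In 2D, iXEN cells and iTSC were compared with 2i/LIF ESC. These cultures differ in the induction of *Gata6* or of the 5 factors, and also in ESC line, medium and plate, which cannot be told apart. In iXEN cells 15 members were higher and 3 lower than in 2i/LIF ESC, of 27 past the filter, with backgrounds of 16.7% and 14.7%. Of the 18 members found in 10% of the cells of both cultures, 13 were higher and 0 lower, next to 15.8% and 11.4% of 11596 genes. The largest ratios were those of *Ctsh* (log2 ratio 8.25), *Serpinh1* (6.05), *Ctsc* (4.97), *Ctsz* (4.12) and *Ctsl* (4.1). Of the 13 members higher in the VE than in the Epi columns, 12 were also among the 15 higher in iXEN cells than in 2i/LIF ESC, which is 92.3% of the first list and 80% of the second. Over all genes the lists of 1611 and 2285 genes shared 71.1% and 50.2%. Of the lower members, 2 in 3D and 3 in 2D, 0 were shared, where all genes gave 54.2% and 43.4%. These 2 contrasts share no cells. *Serping1* was the member outside the shared 12, with 0.166 TP10k in 2i/LIF ESC and 0.259 TP10k in iXEN cells.

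In iTSC 8 members were higher and 5 lower than in 2i/LIF ESC, of 30 past the filter, with backgrounds of 15.2% and 8.3%. Of the 17 found in 10% of the cells of both cultures, 5 were higher and 1 lower, next to 13.7% and 6.47% of 12176 genes. The other 3 higher and 4 lower members entered through 1 culture alone. The higher members were *Cst3*, *Ctsh*, *Ctsc*, *Ctso*, *Serpinh1*, *Serpinb8*, *Serpinb9* and *Serpinb9b*, the last 3 being intracellular serpins of which *Serpinb9* blocks granzyme B. *Cst3* had 7.23 TP10k against 2.8 TP10k, and *Ctsh* 0.105 TP10k against 0.0116 TP10k. The lower members were *Ctsw*, *Serpina3m*, *Serpina3i*, *Serpinb6c* and *Serpinb1a*. *Serpina3m* was found in 58.5% (49.9 to 66.7%) of the 2i/LIF ESC and in 0.709% (0.018 to 3.89%) of the iTSC, and *Serpinb6c* in 57% (48.5 to 65.3%) and 2.84% (0.778 to 7.1%). Of the 8 members higher in the ExE than in the Epi columns, 3 were also higher in iTSC than in 2i/LIF ESC (*Ctsh*, *Ctsc* and *Ctso*), which is 37.5% of either list, where all genes gave 46.3% and 33.9%.

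**Figure D5:**
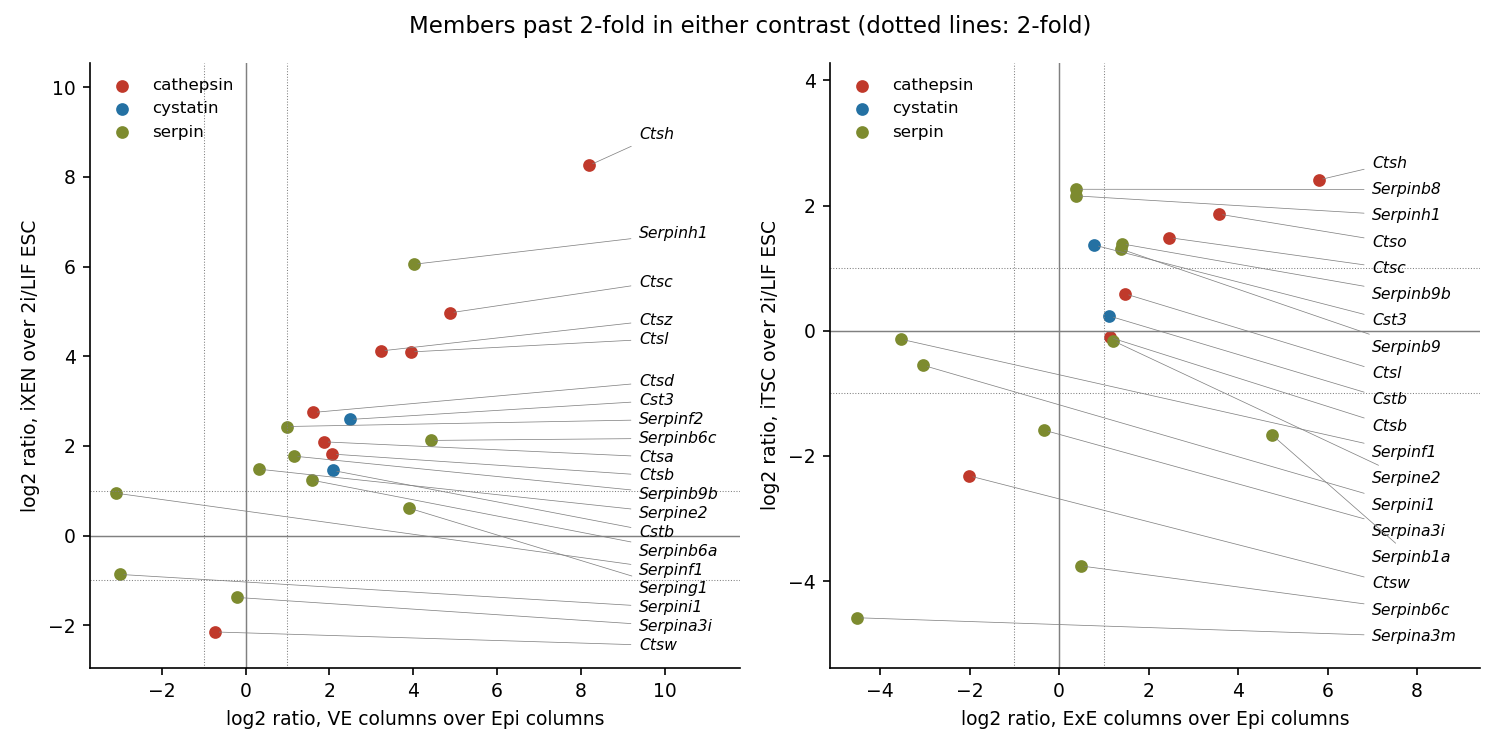
Log2 ratio of the members past 2-fold in either contrast, in 3D (x axis) and 2D (y axis), for the endoderm (left) and the trophoblast lineage (right), without members listed at 0 in a group. In the left panel 12 members were counted as higher in both, *Serpinb9b* lies past both lines but had the opposite sign on 1 plate, and in the right panel *Serpinb1a* lies at 4.76 in 3D and -1.67 in 2D.

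The 3D cells were then set beside the 2D culture of the same lineage. Between the VE columns and iXEN cells 0 members were higher and 4 lower in the VE columns, of 21 past the filter. The lower ones were 19% of these members, against a background of 5.64%, and the background of higher genes was 2.89%. Of the 18 members past the filter in both groups, 0 were higher and 3 lower (16.7%), next to 2.99% and 3.37% of 9834 genes. The 4 lower members were *Ctsd* (6.16 against 12.5 TP10k), *Ctsf* (0.0734 against 0.158 TP10k), *Serpinb9b* and *Serpinf2*. Their log2 ratios were -1.02, -1.01, -1.02 and -1.49, and none passed 3-fold. None remained past 2-fold among cells with 5000 to 8500 genes (56 of them iXEN cells), where *Ctsd* had a log2 ratio of -0.86. *Ctsl* (log2 ratio -0.13), *Ctsz* (-0.21), *Cst3* (-0.22) and *Serpinh1* (-0.01) stayed well under 2-fold, and the iXEN mean of *Ctsl*, 73.1 TP10k, lay within the plates of the VE columns (61.3 to 76.3 TP10k).

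Between the Epi columns and 2i/LIF ESC the members past 2-fold were serpins. Of 25 members past the filter 3 were higher and 4 lower, with backgrounds of 8.38% and 6.25%, and 0 of 8 cathepsins and 0 of 2 cystatins were among them. *Serpinf1* (0.318 against 0.0128 TP10k), *Serpini1* (0.184 against 0.0259 TP10k) and *Serpinh1* (0.337 against 0.0749 TP10k) were higher in the Epi columns. *Serpinb1a* (0.005 against 0.262 TP10k), *Serping1* (0.0188 against 0.166 TP10k), *Serpinb6c* (0.0509 against 0.285 TP10k) and *Serpina3i* (0.00507 against 0.0214 TP10k) were lower. These 4 passed the filter through 2i/LIF ESC alone. Of the 15 members found in 10% of the cells of both groups 2 were higher and 0 lower, next to 9.02% and 3.67% of 9680 genes. The cells of these groups differ in the number of genes found. Among cells with 5000 to 8500 genes, only 21 of them 2i/LIF ESC, the log2 ratios were -3.94 for *Serpinb1a*, -1.7 for *Serping1* and -2.02 for *Serpinb6c*. *Serpina3i* missed the detection filter there, and it fell under 2-fold with 0.1 added and without plate 4 or plate 5.

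Between the ExE columns and iTSC 5 members were higher and 2 lower, of 23 past the filter, with backgrounds of 8.67% and 8.32%. Of the 16 found in 10% of the cells of both groups, 5 were higher and 0 lower, next to 9.49% and 5.39% of 10307 genes. *Serpine2* had 1.47 TP10k in the ExE columns and 0.287 TP10k in iTSC, a log2 ratio of 2.32, or 2.34 without the 37 cells. *Ctsh* (2.87, or 2.03 without them), *Serpinb1a* (2.25, or 1.81) and *Ctso* (1.66, or 1.34) were higher as well. *Ctsa* passed 2-fold at 1.1 with all cells and not at 0.9 without the 37. The lower members were *Serping1*, with 0.021 against 0.234 TP10k, and *Serpinb8*, with 0.0093 against 0.0426 TP10k.

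Cells of 1 group did not all carry the members to the same degree. In the VE columns *Ctsl* ranged from a 5th percentile of 27.4 TP10k to a 95th of 113.97 TP10k, and in iXEN cells from 27.7 to 130.3 TP10k. Across iXEN cells (10% of the cells used) the level of *Ctsl* went with those of *Ctsz* (Spearman's rho 0.685), *Ctsb* (0.64) and *Lgmn* (0.668), and that of *Serpinh1* with *Col4a1* (0.619), whereas *Ctsl* and *Serpinh1* gave 0.0397. In the VE columns (22.4% of the cells used) the same pairs gave 0.296, 0.375, 0.352, 0.244 and 0.217. On the single plates they ran from 0.0668 to 0.452, 0.206 to 0.562, 0.183 to 0.554, 0.178 to 0.304 and 0.061 to 0.188. For *Ctsl* and *Serpinh1* the pooled value thus lay above that of each plate. Cells of a group share their culture and plates, and their number of genes gave a rho of 0.117 with *Ctsl* in iXEN cells and 0.175 in the VE columns, so the coefficients are descriptions of these cells.

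Promoters of 3 members are shown with motifs searched on both strands. RefSeq (GRCm38.p6) gave a promoter, from 250 bases before the start, for 79 of the 96 members and for 19 of the 26 members that passed 2-fold in a comparison. A member was counted once if any of its promoters held a motif, whereas the shares of all promoters count single promoters, so the 2 are not in the same unit. The motif CACGTG, the core of the element bound by TFEB and related factors at lysosomal genes, was in the promoter windows of *Ctsa*, *Ctsd*, *Ctsf* and *Ctsl* and in no other of the 79, which is 5.06% of them, against 7.15% of all 32851 promoters. TGATAA and AGATAA, 2 forms of the site of GATA factors such as the induced *Gata6*, were searched, and other forms were not. At least 1 of them was in the windows of *Ctsz*, *Serpinf1*, *Serpinf2* and *Serpina3i*, and in all in 16 of the 79 members (20.3%), against 18.6% of all promoters. The 3 sequences below are the parts of these windows without annotated exons, for *Ctsz* and *Serpinh1*, both higher in the VE columns and iXEN cells, and for *Ctsf*, which was higher in neither, all 5′ to 3′ on the strand of the gene, with the searched motifs in capitals.
Ctsz, chr2:174439040-174439289, minus strand: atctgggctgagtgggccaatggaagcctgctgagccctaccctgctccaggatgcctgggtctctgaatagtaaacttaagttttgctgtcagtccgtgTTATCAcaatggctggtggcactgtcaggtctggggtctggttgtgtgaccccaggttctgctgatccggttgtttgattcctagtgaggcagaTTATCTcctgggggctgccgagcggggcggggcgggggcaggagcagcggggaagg
Serpinh1, chr7:99353240-99353489, minus strand: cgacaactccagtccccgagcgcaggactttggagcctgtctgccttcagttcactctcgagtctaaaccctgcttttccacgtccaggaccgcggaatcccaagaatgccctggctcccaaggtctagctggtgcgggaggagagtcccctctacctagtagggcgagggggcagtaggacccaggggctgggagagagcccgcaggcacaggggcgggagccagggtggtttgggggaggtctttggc
Ctsf, chr19:4854915-4855129, plus strand: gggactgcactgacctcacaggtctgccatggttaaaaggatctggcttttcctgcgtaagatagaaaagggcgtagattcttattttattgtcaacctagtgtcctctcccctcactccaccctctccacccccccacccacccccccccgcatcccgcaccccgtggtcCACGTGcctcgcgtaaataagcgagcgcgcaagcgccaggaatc
*Ctsz* holds 2 matches of the searched GATA motif read from the opposite strand, *Serpinh1* holds neither motif, and *Ctsf*, with 0.0734 to 0.158 TP10k in all 6 groups, holds 1 CACGTG. The sequence of *Ctsf* also holds AGATAG, a form of the GATA site that was not searched. A match is a description of the letters and not a bound site.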

How the data were processed

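Single-cell libraries (SMART-seq2, single reads, not stranded) were made from 1 pool of RtL-embryoids and 3 2D cultures. Per the methods and labels, the authors used bcl2fastq 2.20, pseudoaligned reads to GRCm38 transcripts with kallisto, removed mitochondrial, ribosomal and pseudogenes, summed TPM per gene and deposited these TPM, 1 column per well, for use in Seurat. TPM keep no read number, so the authors' minimum of aligned reads was not applied. Here the TPM of each cell were rescaled to 10000 (TP10k), cells under 2500 detected genes were left out, and doublets were not called. With 1 culture per group nothing was tested. Ratios are of group means with 0.01 added, and calls need 2-fold, the same sign on plates 3, 4 and 5 and detection in 10% of the cells of either group. Calls were tested on simulated data. Named are members called in any of the 8 comparisons and the 15 with the highest means; listed pathway genes are named by the size of their ratio. Members and lists were chosen with earlier results of these data known. Alternatives covered scaling, pseudocount, filters, fold, trimmed means, plates and markers. Analyses ran in Python 3.11.15 (pandas 2.3.3, scipy 1.17.1, numpy 2.4.6), with matplotlib 3.10.9 for plots.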

Additional observations from a re-analysis of the deposited data

Results flagged for a closer look

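*Serpinb1a* moved in opposite directions in the trophoblast contrasts. Its log2 ratio was 4.76 for the ExE over the Epi columns and -1.67 for iTSC over 2i/LIF ESC. Set by dimension, it was -4.18 for the Epi columns over 2i/LIF ESC and 2.25 for the ExE columns over iTSC. The level in the Epi columns rests on 3 cells, and without the 37 cells of the ExE columns led by other markers the first ratio was 4.32 and the last 1.81. With 1 culture per group the difference was not tested.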

How the results depend on the processing

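No paired analysis was possible because each group is 1 culture and replicate numbers only name wells. Over 16 settings most counts of members stayed within 1.5 times of the reported count, 20 were smaller and 7 larger. With a 25% detection filter the lower members went from 2 to 1 (VE over Epi columns), 2 to 0 (VE over ExE), 2 to 1 (ExE over iTSC), 3 to 1 (iXEN over ESC) and 5 to 3 (iTSC over ESC), and the higher members of ExE over iTSC from 5 to 3. Without a filter the lower members of ExE over Epi columns went from 3 to 5. Without the highest 2% of cells the lower members went from 2 to 4 (VE over Epi columns) and 2 to 4 (ExE over iTSC). At 3-fold the higher members went from 8 to 4 (ExE over Epi columns) and 8 to 4 (iTSC over ESC), and the lower ones from 4 to 0 (VE over iXEN) and 2 to 1 (ExE over iTSC). With 0.1 added the lower members went from 4 to 1 (VE over iXEN), 2 to 1 (ExE over iTSC), 3 to 1 (iXEN over ESC) and 5 to 3 (iTSC over ESC), and the higher ones of iTSC over ESC from 8 to 3; with 0.001 the lower members of iXEN over ESC went from 3 to 7. Keeping cells led by their own unscaled markers left 2 of 4 lower members in VE over iXEN. Settings chosen after seeing the data were cells led by their own scaled markers, which left 3 of these 4, and cells with 5000 to 8500 genes. The latter gave 5 higher in place of 3 (Epi columns over ESC), 1 higher in place of 0 and 0 lower in place of 4 (VE over iXEN), 3 higher in place of 5 (ExE over iTSC), and turned *Serpinb9b* in VE over iXEN to 0.62. Leaving out 1 plate gave 2 to 4 lower members in VE over Epi columns and 1 to 3 in VE over iXEN. On the deposited TPM scale the median of all genes in ExE over iTSC was 0.19 in place of 0.02. Causes were not tested. Levels near 0 are limited by the unknown read number.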
